A study of Mus musculus with 28 samples.

Results

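The libraries described here are the 3 made from proximal tubular cells of injured mice given exosomes (EXO) and the 3 made from proximal tubular cells of injured mice given scrambled miRNA (SCB), 6 of the 28 samples of the series. They were taken by their titles and treatment labels, and no measured value entered the choice. Both groups came from FVB males whose kidneys had been injured by ischemia, so the injury was common to EXO and SCB and treatment was the only labelled difference. The series, whose title concerns miR-486-5p, also holds sham, untreated-injury and miR-486-5p mimic groups and the same 5 groups of endothelial cells. After enzymatic digestion of the kidney, tubular cells were collected by microdissection, and only RNA of good measured quality was carried into poly(A)-selected libraries. The labels give neither the source of the exosomes nor the dose, route or time of sampling, and they name the SCB treatment only as scrambled miRNA, not as control exosomes, so effects of the vesicle and of its cargo cannot be told apart. Each library was taken as 1 mouse because the labels report RNA from 3 mice in each group. The tests measure the spread between libraries, and the 2 tubular mimic libraries also entered that estimate.

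The proximal tubule reabsorbs most of what the glomerulus filters, by way of apical carriers for phosphate, glucose, amino acids and organic ions and of the endocytic receptors megalin and cubilin, and it pays for this with mitochondrial oxidation of fatty acids. Ischemia damages this segment first. Surviving cells lose their brush border, switch on a set of injury genes such as the one for kidney injury molecule 1, flatten and spread over the denuded basement membrane, and some re-enter the cell cycle. Exosomes are small vesicles that cells release and take up, and that carry RNA and protein between them.

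The libraries matched their label. Summed over the 15 proximal tubule markers, levels were 38141 to 53224 CPM in EXO and 16255 to 28193 CPM in SCB libraries. Here CPM are reads scaled to a common library size after normalization by the trimmed mean of M values. The gene Kap, whose values are given below, made up a large part of these sums. The gap between the groups therefore leans on Kap and does not describe the other markers. Markers of podocytes summed to 31.0 to 241 CPM in EXO and 47.8 to 119 CPM in SCB libraries, and those of endothelium to 156 to 232 CPM in EXO and 131 to 201 CPM in SCB libraries. Depth was 11304348 to 13297095 reads over the genes tested in EXO and 8571197 to 12952977 reads in SCB libraries. The share of reads on mitochondrially encoded genes was 9.64, 10.8 and 14.3% in EXO and 4.51, 9.73 and 7.81% in SCB libraries. SCB libraries varied more among themselves: the median over genes of the SD of log2 CPM was 0.205 in EXO and 0.347 in SCB. SCB library 1 lay nearest to EXO on the first principal component and had the lowest SCB levels of Havcr1, Lcn2, Clu and Plaur. In such bulk samples a smaller number of injured cells and less injury RNA in each cell cannot be told apart.

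Exosome-treated tubules differed from scrambled-miRNA tubules in 765 of 14913 genes tested, 5.13%. With exosomes 406 genes rose (2.72%) and 359 fell (2.41%), at a Benjamini-Hochberg adjusted p under 0.05 in edgeR's quasi-likelihood test. The risen genes had a median log2 fold of 0.89 and the fallen genes of -1.02, while the median of all genes was -0.016. The lowest adjusted p was 0.00909, for the unprocessed pseudogene Gm6300, so most calls lay close to the threshold. The number of calls depended heavily on the EXO libraries: without EXO library 1, 2 or 3 there were 12, 1 and 1 calls. Without SCB library 1, 2 or 3 there were 1005, 85 and 1335 calls. Without the mimic libraries in the estimate of spread there were 453 calls. Of the 29 functional lists with a call, 28, 29 and 29 had none without EXO library 1, 2 or 3, and 0, 15 and 1 had none without SCB library 1, 2 or 3, so the counts by list hold for all libraries together. The plot of fold against level shows the calls spread over the whole range of expression.

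**Figure D1:**
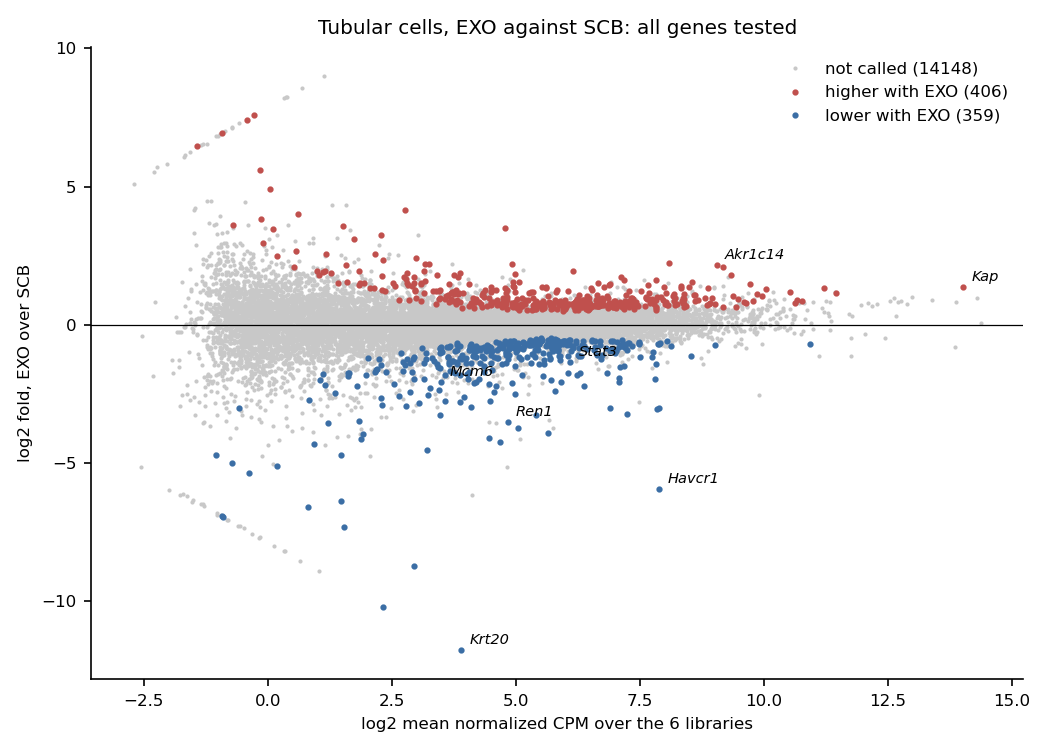
Log2 fold of EXO over SCB (y axis) against the log2 of the mean normalized CPM over the 6 libraries (x axis) for the 14913 genes tested, with the 406 genes higher and the 359 lower with EXO in colour. Straight diagonal rows at the left are genes read in 1 group only, whose fitted fold depends on the prior count; Krt20 and Havcr1 stand lowest among the labelled genes and Akr1c14 highest.

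Injury genes of the tubule had the lowest median log2 fold of the 37 functional lists, -1.92, against -0.016 over all genes. Of 24 tested, 8 fell, 0 rose and 16 did not pass. Havcr1, the gene of kidney injury molecule 1, at chromosome 11, 46735080 to 46779578 (GRCm38), measured 8.63, 5.95 and 8.15 CPM in EXO and 14.8, 447 and 938 CPM in SCB libraries. Every EXO library was below every SCB library, as for 358 of the 359 fallen and all 406 risen genes in their own direction (14.5% of genes tested were separated downward and 15.9% upward), but SCB library 1 stood near the EXO level and far from the other SCB libraries. The log2 fold was -5.94 ± 1.16 SE at adjusted p = 0.0326; it was -6.53 without SCB library 1 (adjusted p = 0.000816) and -6.01 without SCB library 2, where the adjusted p was 0.0766.

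Clu, which encodes the secreted chaperone clusterin, had 46.7, 19.7 and 21.6 CPM in EXO and 79.9, 326 and 413 CPM in SCB libraries (log2 fold -3.21 ± 0.59 SE at adjusted p = 0.0299). Lcn2, the gene of the iron-binding injury marker NGAL, had 3.24, 0.676 and 3.34 CPM in EXO and 11.7, 24.3 and 88.4 CPM in SCB libraries, at a log2 fold of -4.09 ± 0.97 SE at adjusted p = 0.0469. The groups did not overlap for either gene, and SCB library 1 was again the lowest of its group. Sox9, a transcription factor of regenerating tubules, was close to undetected with exosomes at 0.294, 0 and 0.294 CPM, against 1.88, 9.48 and 4.69 CPM in SCB libraries. Plin2, a coat protein of lipid droplets, stood at 95.9, 82.8 and 92.2 CPM in EXO and 126, 390.2 and 545 CPM in SCB libraries (log2 fold -1.97 ± 0.42 SE at adjusted p = 0.0390). Sox4, Il34 and Cdkn1a completed the 8 that fell. Members that missed the threshold included Vcam1, an adhesion molecule of unrepaired tubules, with 5.17, 2.11 and 3.24 CPM in EXO and 6.81, 93.4 and 21.7 CPM in SCB libraries (log2 fold -3.52 ± 0.88 SE at adjusted p = 0.0525), and the osteopontin gene Spp1 (log2 fold -2.54 ± 0.64 SE at adjusted p = 0.0534). The count for this list was 14 without SCB library 1, 0 without SCB library 2 and 8 without SCB library 3, and 0 without any 1 of the EXO libraries, while the list median stayed between -2.28 and -1.52 in all these fits. Within SCB the highest library exceeded the lowest by a median of 4.23-fold for these genes, against 2.41-fold within EXO.

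**Figure D2:**
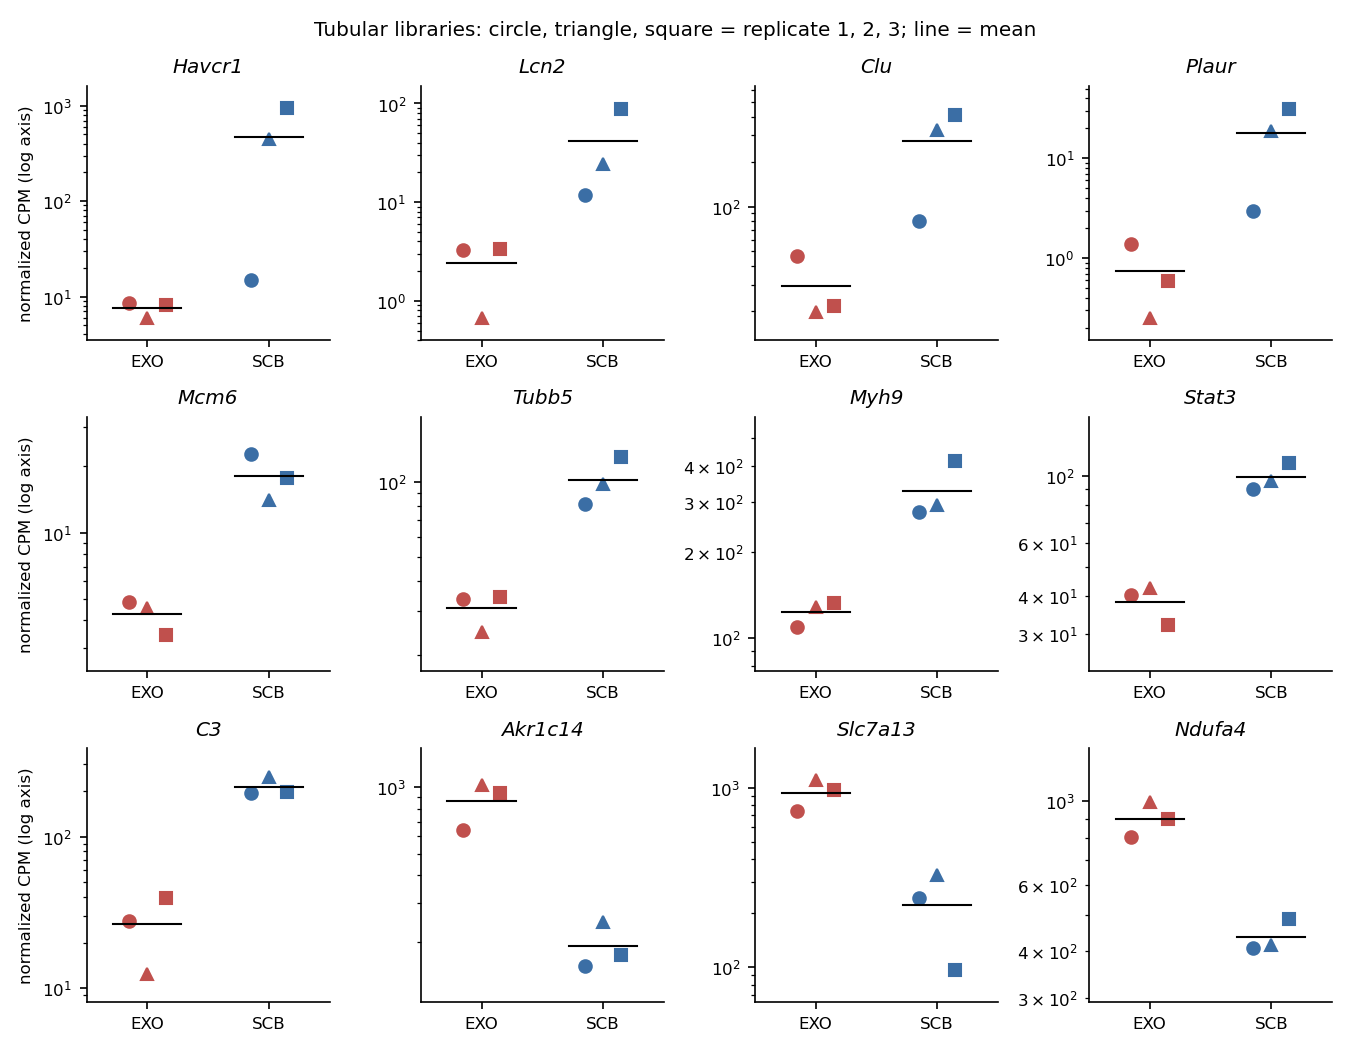
Normalized CPM (y axes, log scale, each with its own range) of 12 genes in the 3 EXO libraries (left in each panel, red) and the 3 SCB libraries (right, blue), with a black line at the group mean. For Havcr1, Lcn2, Clu and Plaur SCB library 1 (circle) lies below the other SCB libraries, whereas for Mcm6, Tubb5, Myh9, Stat3 and C3 the 3 SCB libraries lie close together and above all EXO libraries; Akr1c14, Slc7a13 and Ndufa4 are higher in EXO.

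Some keratins, plasmin regulators and calcium-binding proteins fell as well. Krt20, a keratin of damaged tubules, had 0 reads in all 3 EXO libraries and 0.626, 56.8 and 32.1 CPM in SCB libraries, so it was at least 315-fold lower with exosomes, with 3 reads over the group as the floor and normalized library sizes. Krt19, a keratin of ducts and of stressed epithelium, also had 0 reads with exosomes, against 0.695, 1.13 and 1.28 CPM in SCB libraries, at least 11.7-fold lower. The other 4 of 6 tested keratins did not pass, and the median of the 6 was -1.39. Without SCB library 1, 2 or 3 the keratins that fell numbered 3, 0 and 0. Of 14 fibrinolysis and coagulation genes, 5 fell and 0 rose. Plaur, the urokinase receptor, had 1.40, 0.254 and 0.589 CPM in EXO and 2.99, 19.0 and 31.3 CPM in SCB libraries (log2 fold -4.51 ± 0.86 SE at adjusted p = 0.0315). The 3 fibrinogen chain genes fell together: Fga measured 52.9, 23.8 and 72.7 CPM in EXO and 119.6, 384 and 718 CPM in SCB libraries, with log2 folds of -3.03 for Fga, -3.91 for Fgb and -2.99 for Fgg. Among 19 S100 proteins and annexins, S100a6 (log2 fold -4.25 ± 0.77 SE at adjusted p = 0.0295) and Anxa2, an annexin that holds plasminogen and tissue plasminogen activator at the cell surface (log2 fold -3.25 ± 0.69 SE at adjusted p = 0.0390), fell. Anxa13, an annexin of polarized epithelia, rose, with 9.64, 14.4 and 13.6 CPM in EXO and 5.35, 4.97 and 2.88 CPM in SCB libraries. For fibrinolysis the count was 6 without SCB library 1, 0 without SCB library 2, 3 without SCB library 3 and 0 without any 1 EXO library.

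The promoters of Plaur and Anxa2 are shown because AP-1, the factor to which the fallen genes Fosl1 and Fosl2 contribute, is known to act at genes of this group. Both were picked by hand and hold the AP-1 word, so they do not represent the fallen genes. Of the 22 tested genes of the immediate early and AP-1 list only 3 fell, and a part of AP-1 was not tested. They run from 250 bases before to 50 after the RefSeq start (GRCm38.p6), at chr7:24462233-24462532 (plus strand) and chr9:69453433-69453732 (plus strand), with the AP-1 word TGACTCA, searched on both strands, in capitals.
Plaur: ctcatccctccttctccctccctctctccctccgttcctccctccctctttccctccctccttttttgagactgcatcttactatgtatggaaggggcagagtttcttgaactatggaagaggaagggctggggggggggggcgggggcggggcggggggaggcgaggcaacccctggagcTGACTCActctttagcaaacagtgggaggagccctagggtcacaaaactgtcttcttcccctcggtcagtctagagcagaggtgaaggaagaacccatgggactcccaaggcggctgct
Anxa2: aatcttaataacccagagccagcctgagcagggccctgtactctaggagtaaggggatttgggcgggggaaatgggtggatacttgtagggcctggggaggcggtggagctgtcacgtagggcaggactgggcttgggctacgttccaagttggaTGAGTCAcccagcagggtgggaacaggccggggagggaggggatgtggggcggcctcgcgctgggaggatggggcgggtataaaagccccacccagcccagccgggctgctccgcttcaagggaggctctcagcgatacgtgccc
The word was present in 27 of 288 fallen genes with a promoter in the table (9.38%), in 9 of 283 risen genes (3.18%) and in 486 of 10452 genes tested (4.65%). These shares describe letters in a short window and say nothing of binding.

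Genes of the cytoskeleton and of cell contacts fell as well, and many of these were even among the SCB libraries. Of 30 actin and membrane cytoskeleton genes 8 fell and 0 rose (median log2 fold -0.67), and of 11 tubulins 5 fell and 0 rose (median -1.49). Tubb5, a beta-tubulin, had 33.6, 24.8 and 34.4 CPM in EXO and 81.7, 98.6 and 127 CPM in SCB libraries (log2 fold -1.72 ± 0.20 SE at adjusted p = 0.0190). Myh9, the heavy chain of non-muscle myosin IIA, had 109, 128 and 133 CPM in EXO and 276, 292 and 416 CPM in SCB libraries (log2 fold -1.41 ± 0.19 SE at adjusted p = 0.0215). No SCB library came near the EXO range for either gene. Also lower, with Tubb2b, were Tuba1b (-1.49), Tubb2a (-2.38) and Tubb6 (-1.58) among tubulins, whose copies resemble one another so that reads could be split between them, and Actn1 (-2.42), Tagln2 (-1.52) and Actb (-0.71) among actin-binding proteins and actins, all as log2 folds. Tubb5 passed without any 1 of the SCB libraries (adjusted p = 0.00350 to 0.0406) and missed the threshold without any 1 of the EXO libraries (0.0560 to 0.117), with log2 folds between -1.88 and -1.56 throughout. Without SCB library 1, 2 or 3 the falls numbered 11, 1 and 14 for the actin list and 6, 2 and 4 for tubulins, and without any 1 EXO library 0 for both.

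Of 24 integrins and junction proteins 4 fell and 1 rose. Itga6, the alpha chain of the hemidesmosome integrin, had 60.7, 68.9 and 56.3 CPM in EXO and 136, 161 and 144 CPM in SCB libraries (log2 fold -1.25 ± 0.20 SE at adjusted p = 0.0243). Itga3, its laminin-binding relative, had a log2 fold of -0.94, and Cldn1, a claudin of tight junctions, also fell. Cldn10, a pore-forming claudin of the proximal tubule and the thick ascending limb, was the gene that rose, with 314, 397 and 368 CPM in EXO and 138, 181 and 162 CPM in SCB libraries (log2 fold 1.17 ± 0.16 SE at adjusted p = 0.0226). Among 26 collagens, laminins and other matrix genes 5 fell and 0 rose. The basement membrane chains Col4a1 and Lamc1 were alike in their low spread: Col4a1 had 94.7, 135 and 109 CPM in EXO and 276, 228 and 250.1 CPM in SCB libraries (log2 fold -1.16 ± 0.17 SE at adjusted p = 0.0243), and Lamc1 had a log2 fold of -1.15 ± 0.16 SE at adjusted p = 0.0226. Col4a2, which shares its promoter region with Col4a1, had a log2 fold of -1.09, and Col18a1, the endostatin precursor, of -2.07. The matrix count was 5 without SCB library 1, 2 without SCB library 2, 6 without SCB library 3 and 0 without any 1 EXO library.

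DNA replication genes fell in 14 of 37 cases and rose in 1, with a median log2 fold of -0.83. All 6 subunits of the replicative helicase, Mcm2 to Mcm7, were among the 14. Mcm6 (chromosome 1, 128331590 to 128359664) had 4.86, 4.56 and 3.43 CPM in EXO and 22.8, 14.0 and 17.6 CPM in SCB libraries, a log2 fold of -2.08 ± 0.26 SE at adjusted p = 0.0190. Mcm3 had 4.93, 3.89 and 1.96 CPM in EXO and 21.3, 14.6 and 19.2 CPM in SCB libraries (log2 fold -2.34 ± 0.33 SE at adjusted p = 0.0226). Mcm4 followed with 6.77, 4.56 and 4.42 CPM in EXO and 18.6, 15.5 and 21.9 CPM in SCB libraries (log2 fold -1.82 ± 0.26 SE at adjusted p = 0.0226). In contrast with Havcr1, SCB library 1 was the highest SCB library for Mcm6 and Mcm3. Lig1, the ligase that joins lagging-strand fragments, had a log2 fold of -1.97 ± 0.29 SE at adjusted p = 0.0239, and Cdt1, the licensing factor that loads the helicase, of -1.96 ± 0.38 SE at adjusted p = 0.0317. Fen1, Gins1, Gins2, Pola2, Rrm2 and Orc1 made up the rest. Rpa3, the smallest subunit of the single-strand binding complex, was the member that rose, with 19.8, 27.0 and 24.9 CPM in EXO and 10.2, 13.4 and 13.9 CPM in SCB libraries; no replication gene was called higher without SCB library 1 or 2. Among 20 mitosis genes and cyclins 1 fell, Top2a, the topoisomerase of dividing cells, with 0.732, 0.930 and 0.785 CPM in EXO and 4.31, 3.66 and 1.92 CPM in SCB libraries. The replication count was 9 falling without SCB library 1, 5 without SCB library 2 and 11 without SCB library 3, and 0 without any 1 EXO library, with medians from -1.07 to -0.60. Mcm6 alone had log2 folds from -2.26 to -1.89 in these fits.

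The promoters of 3 helicase subunits are shown because replication genes are known targets of the E2F factors; the 3 were chosen from those that hold such a word. They are RefSeq windows of the same kind on the minus strand of GRCm38.p6, at chr1:20820263-20820562 for Mcm3, chr1:128359656-128359955 for Mcm6 and chr5:138171834-138172133 for Mcm7, the first of a pair of starts in the table for the last of these. Capitals mark the E2F words searched, on both strands: TTCCCGC, then TTGGCGC, then TTCGCGC, then TTGCCGC. Words that overlap run together.
Mcm3: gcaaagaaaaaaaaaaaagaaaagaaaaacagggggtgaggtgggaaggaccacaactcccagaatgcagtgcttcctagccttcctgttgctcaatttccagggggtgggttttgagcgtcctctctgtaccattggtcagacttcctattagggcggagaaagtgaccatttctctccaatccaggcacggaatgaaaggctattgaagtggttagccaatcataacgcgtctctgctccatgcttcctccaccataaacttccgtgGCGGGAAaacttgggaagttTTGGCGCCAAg
Mcm6: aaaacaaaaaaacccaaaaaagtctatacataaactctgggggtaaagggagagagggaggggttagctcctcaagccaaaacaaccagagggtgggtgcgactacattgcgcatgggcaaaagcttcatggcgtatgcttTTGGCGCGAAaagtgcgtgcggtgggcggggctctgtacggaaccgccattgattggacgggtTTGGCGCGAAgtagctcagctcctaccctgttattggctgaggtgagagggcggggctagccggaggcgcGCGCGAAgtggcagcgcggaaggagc
Mcm7: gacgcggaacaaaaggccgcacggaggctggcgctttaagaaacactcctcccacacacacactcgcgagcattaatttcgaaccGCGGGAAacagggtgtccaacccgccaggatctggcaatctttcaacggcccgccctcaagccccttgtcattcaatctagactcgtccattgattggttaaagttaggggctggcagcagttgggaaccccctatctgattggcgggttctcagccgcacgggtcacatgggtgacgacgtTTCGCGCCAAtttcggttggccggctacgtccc
Counting overlapping words on either strand, Mcm3 held 3 matches, Mcm6 5 and Mcm7 3, against 1 at the other start of Mcm7. Mcm5 held 3, and Mcm2, which also fell, held 0. Of the 14 replication genes that fell, 11 had a promoter in the table and 9 held such a word. The share among replication genes that did not fall was not computed, so these 9 do not tie the word to the fall. They are also among the fallen genes counted next, and all these shares describe letters and say nothing of binding. A word was present in 72 of 288 fallen genes (25.0%), in 43 of 283 risen genes (15.2%), in 1957 of 10452 genes tested (18.7%) and in 2936 of all 27025 promoters of the table (10.9%). Words of 4 other factors were searched in the same windows. The HNF1 word GTTAAT was in 4.51% of fallen and 9.19% of risen genes, beside 6.00% of genes tested. The YY1 word GATGGCG was in 3.82% of fallen and 8.13% of risen genes, beside 7.19%. The HNF4 word AAAGTCC was in 4.51% of fallen and 4.95% of risen genes, beside 4.89%, and the NF-kB motif in 9.38% and 5.30%, beside 6.22%.

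Inflammatory signalling genes were lower in part. Of 25 NF-kB and chemokine genes 7 fell and 0 rose (median log2 fold -1.02), and these included the factor subunits Nfkb1, Nfkb2, Rela and Relb themselves. Bcl3, a nuclear co-regulator of NF-kB, had 6.63, 4.90 and 8.24 CPM in EXO and 16.5, 31.5 and 29.9 CPM in SCB libraries (log2 fold -1.98 ± 0.29 SE at adjusted p = 0.0234). Icam1, the leukocyte adhesion molecule, had 16.6, 16.4 and 13.4 CPM in EXO and 31.5, 58.3 and 72.2 CPM in SCB libraries (log2 fold -1.80 ± 0.28 SE at adjusted p = 0.0243). Cx3cl1, the membrane-bound chemokine fractalkine, had a log2 fold of -1.39 ± 0.23 SE at adjusted p = 0.0243 and Nfkb1 of -1.02 ± 0.19 SE at adjusted p = 0.0295. Ccl2, a chemokine that draws monocytes, did not pass (log2 fold -2.07 ± 0.76 SE at adjusted p = 0.136). The count was 9 without SCB library 1, 1 without SCB library 2, 7 without SCB library 3 and 0 without any 1 EXO library.

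In the complement and acute phase list 1 of 15 genes fell and 1 rose. C3, the central complement component, had 27.6, 12.5 and 39.6 CPM in EXO and 193, 249 and 196 CPM in SCB libraries (log2 fold -3.00 ± 0.55 SE at adjusted p = 0.0295), even among SCB libraries and uneven among EXO libraries. Cd55, which speeds the decay of complement convertases at the cell surface, moved the other way, with 18.7, 16.9 and 20.3 CPM in EXO and 6.67, 6.00 and 7.24 CPM in SCB libraries (log2 fold 1.49 ± 0.18 SE at adjusted p = 0.0190). Both groups were tight for Cd55. The interferon list had 0 calls of 21 tested in edgeR, 2 at an unadjusted p under 0.05 and 0 in DESeq2, with a median log2 fold of -0.05.

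NRF2 antioxidant genes fell in 5 of 20 cases, and none rose. Hmox1, the inducible heme oxygenase, had 18.3, 26.2 and 18.7 CPM in EXO and 52.6, 67.1 and 131 CPM in SCB libraries (log2 fold -1.98 ± 0.32 SE at adjusted p = 0.0243), and Srxn1, Txnrd1, Pgd and Tkt had log2 folds of -1.93, -0.96, -1.11 and -0.68. Without SCB library 1, 2 or 3 the NRF2 falls numbered 8, 1 and 4. Among 22 immediate early genes the 3 that fell were Fosl1, Fosl2 (log2 fold -1.51) and Ier3 (log2 fold -1.48). Fosl1, an AP-1 subunit, had 0.0736, 0 and 0 CPM in EXO and 1.18, 11.4 and 4.58 CPM in SCB libraries, with 1 read in all EXO libraries together. Of 24 p53 response genes 3 fell and 1 rose: Trp53 itself had 21.3, 18.2 and 17.7 CPM in EXO and 26.3, 31.5 and 42.5 CPM in SCB libraries, the cell cycle inhibitor Cdkn1a a log2 fold of -2.09 ± 0.47 SE at adjusted p = 0.0421, and Zmat3 of -0.77, while Rrm2b, the p53-induced ribonucleotide reductase subunit, rose with 39.1, 34.8 and 36.9 CPM in EXO and 18.1, 22.8 and 19.0 CPM in SCB libraries. The p53 median of -0.56 was -0.32 without SCB library 2, where 0 genes of the list fell, and -0.19 without SCB library 3. Of 16 heat shock chaperones only Hspb1, a small chaperone that binds actin, fell (log2 fold -2.75 ± 0.58 SE at adjusted p = 0.0379). The unfolded protein list had 0 calls of 26 in edgeR (median 0.07), beside 8 at an unadjusted p under 0.05 and 1 higher and 3 lower in DESeq2. Regulated cell death had 0 of 20 in edgeR (median -0.37), beside 8 unadjusted and 3 lower in DESeq2. Of 14 metallothionein and iron genes 1 fell, the metal-binding Mt1 (log2 fold -2.06 ± 0.49 SE at adjusted p = 0.0471). In the EGF receptor list 2 of 19 fell, the ligand gene Nrg1, with 7.64, 7.08 and 8.58 CPM in EXO and 18.6, 27.0 and 46.0 CPM in SCB libraries (log2 fold -1.97 ± 0.32 SE at adjusted p = 0.0243), and the ephrin receptor Epha2 (log2 fold -1.68 ± 0.24 SE at adjusted p = 0.0226).

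Beyond the lists, the 8 falls with the smallest p among well-read protein-coding genes were those of Nectin1, Stat3, Lmna, Cebpa, Piezo1, Mapk4, Ddr1 and Nup62, with log2 folds from -1.50 to -1.02. Stat3, the transcription factor downstream of interleukin 6 family receptors (chromosome 11, 100885098 to 100939540), had 40.4, 42.7 and 32.0 CPM in EXO and 90.2, 95.7 and 110.1 CPM in SCB libraries (log2 fold -1.36 ± 0.15 SE at adjusted p = 0.0190). Nectin1, an adhesion molecule of adherens junctions, had 17.3, 18.3 and 14.2 CPM in EXO and 47.7, 41.0 and 52.3 CPM in SCB libraries (log2 fold -1.50 ± 0.16 SE at adjusted p = 0.0190). Piezo1, a stretch-gated cation channel, had 23.4, 21.1 and 27.96 CPM in EXO and 64.6, 60.9 and 65.9 CPM in SCB libraries (log2 fold -1.40 ± 0.18 SE at adjusted p = 0.0190). All 3 were separated between groups with little spread within either. Lmna encodes the A-type lamins of the nuclear envelope (log2 fold -1.08), Ddr1 a collagen receptor (-1.02), Cebpa a differentiation factor (-1.09), Mapk4 an atypical MAP kinase (-1.07) and Nup62 a nucleoporin (-1.15).

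On the rising side, carriers of the proximal tubule contributed a small number of calls. Of 26 SLC22 and organic ion transporters 4 rose and 1 fell, of 30 glucose, phosphate and other solute transporters 2 rose and 2 fell, and of 20 amino acid transporters 2 rose and none fell. Slc7a13, the cystine and aspartate carrier of the late proximal tubule, had 737, 1103 and 973 CPM in EXO and 242, 325 and 96.0 CPM in SCB libraries (log2 fold 2.08 ± 0.40 SE at adjusted p = 0.0314). Cltrn (collectrin), a partner that brings amino acid carriers to the brush border, had 1879, 2356 and 1944 CPM in EXO and 957, 1035 and 696 CPM in SCB libraries (log2 fold 1.20 ± 0.20 SE at adjusted p = 0.0251). Even the highest SCB library stayed below the lowest EXO library for both. Slc22a30 and Slc22a19, organic anion carriers of rodents, had log2 folds of 1.64 ± 0.32 SE at adjusted p = 0.0333 and 2.20 ± 0.34 SE at adjusted p = 0.0243. Slco1a1 (1.47) and Slco1a6 (0.92), Slc5a8, a monocarboxylate carrier (1.24), and Slc17a3, an organic anion carrier of the apical membrane (0.82), rose; Slco1a1 and Slco1a6 are related in sequence, so reads could be split between them. Carriers that fell were Abcc4, an efflux pump (-1.37), Slc16a1, a lactate carrier (-1.07), and Slc20a2, a widely expressed phosphate carrier (-0.53).

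The genes that define the segment were not uniformly higher. Of the 15 proximal tubule markers 3 rose and 12 did not pass, with a median log2 fold of 0.55. Without SCB library 1, 2 or 3 the rises numbered 4, 0 and 2, and the median was 0.19 without SCB library 3. Kap, an androgen-driven kidney protein gene, had 19837, 29190.3 and 22529 CPM in EXO and 7425, 11935 and 8618 CPM in SCB libraries (log2 fold 1.35 ± 0.32 SE at adjusted p = 0.0455); Slc7a13 and Slc22a30 were the others. Lrp2, the gene of megalin, had 1199, 1739 and 1969 CPM in EXO and 2177, 1499 and 598 CPM in SCB libraries (log2 fold 0.20 ± 0.41 SE at adjusted p = 0.807). Slc34a1, the main phosphate carrier, had 3426, 4287 and 3663 CPM in EXO and 5020.0, 2763 and 940.1 CPM in SCB libraries (log2 fold 0.38 ± 0.47 SE at adjusted p = 0.660). For both the groups overlapped, with SCB library 1 the highest library of all 6 and SCB library 3 the lowest, and the log2 folds were -0.19 and -0.059 without SCB library 3. None of 25 proximal tubule transcription factors, Hnf4a included (log2 fold 0.25 ± 0.20 SE at adjusted p = 0.482), passed in edgeR (median -0.18). Of these 25, 4 had an unadjusted p under 0.05 and DESeq2 called 1 higher. Of 23 genes of the megalin and cubilin route 3 fell and 0 rose: Ap2a1 (-0.60), an adaptor subunit, Ehd1 (-0.63), a recycling ATPase, and Atp6v0a1 (-0.62), a proton pump subunit.

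Enzymes that metabolize drugs, steroids and amino acids rose more often than they fell. Of 31 cytochromes P450, UDP-glucuronosyltransferases and sulfotransferases 7 rose and 0 fell, with a median log2 fold of 0.57. Sult1d1, a sulfotransferase of catechols, had 1369, 1455 and 1653 CPM in EXO and 388, 858 and 569.7 CPM in SCB libraries (log2 fold 1.30 ± 0.27 SE at adjusted p = 0.0357). Cyp4b1, a monooxygenase, had 3259, 4409 and 3988 CPM in EXO and 1846, 2120.3 and 1306 CPM in SCB libraries (log2 fold 1.14 ± 0.25 SE at adjusted p = 0.0392). Ugt2b38 (1.31) and Ugt2b37 (1.37) belong to a cluster of near-copies, so their separate values are uncertain. Without SCB library 2 only 1 of these genes passed, and without any 1 EXO library none did, with list medians between 0.47 and 0.74.

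In the glutathione and aldo-keto list 3 of 28 rose and 1 fell. Akr1c14, a steroid dehydrogenase (chromosome 13, 4049011 to 4090688), had 642, 1024 and 939 CPM in EXO and 157, 247 and 175 CPM in SCB libraries, a log2 fold of 2.17 ± 0.29 SE at adjusted p = 0.0215. It passed in 11 of 13 alternative fits, missing only without EXO library 2 or 3 (adjusted p = 0.123 and 0.107). Akr1b8, an aldose reductase relative, went down, with 0.599, 0.338 and 0.0981 CPM in EXO and 1.26, 4.75 and 6.76 CPM in SCB libraries, while Gstz1 (0.85) and Gpx1 (0.84) rose. Of 42 amino acid and creatine metabolism genes 3 rose and 0 fell, and 36 had a positive log2 fold (median 0.47). They were Inmt, an indole and histamine methyltransferase, with 289.8, 624 and 423 CPM in EXO and 120.5, 103 and 61.6 CPM in SCB libraries (log2 fold 2.23 ± 0.38 SE at adjusted p = 0.0257), Aadat, a kynurenine aminotransferase (log2 fold 1.33 ± 0.29 SE at adjusted p = 0.0420), and Amt, of the glycine cleavage system (log2 fold 0.61 ± 0.14 SE at adjusted p = 0.0420). Fatty acid oxidation and peroxisome genes rose in 3 of 40 cases (Amacr 1.36, Echs1 0.92 and Etfa 0.70) and fell in 1, the acyl-CoA thioesterase Acot2 (-1.28), with a median of 0.06. In gluconeogenesis and fructose metabolism 1 of 21 fell, Gpt2 (-0.75), and in glycolysis and hypoxia 1 of 29 rose, the mitophagy receptor Bnip3 (0.75), and 2 fell, Pfkp (-1.15) and Pfkfb3 (-1.17). In the glycolysis list 0 rose and 4 fell without SCB library 1, none was called without SCB library 2, and 1 rose and 0 fell without SCB library 3. The citric acid cycle had 0 calls of 21 in edgeR (median 0.23), beside 9 at an unadjusted p under 0.05 and 5 higher in DESeq2. The proteasome had 0 of 28 in edgeR (median 0.25), beside 5 unadjusted and 0 in DESeq2; without SCB library 3, 9 rose and the median was 0.40, and the median was 0.074 without SCB library 1 and 0.077 with the length trend removed.

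Subunits of the respiratory chain encoded in the nucleus rose in 16 of 40 cases, the largest count of any list without a length correction, with none lower and 39 positive log2 folds (median 0.51). Ndufb8, a complex I subunit, had 574, 622 and 589 CPM in EXO and 295, 276 and 332 CPM in SCB libraries (log2 fold 0.98 ± 0.16 SE at adjusted p = 0.0243). Ndufa4, a subunit of cytochrome c oxidase despite its name, had 806, 995 and 896 CPM in EXO and 408, 416 and 486 CPM in SCB libraries (log2 fold 1.04 ± 0.18 SE at adjusted p = 0.0274). Cox4i1 (0.85) and Cox7b (0.94), both of cytochrome c oxidase, rose as well. The 13 mitochondrially encoded messages all had positive log2 folds (median 0.88), but none passed in edgeR. Without adjustment 12 had a p under 0.05, and DESeq2 called 6 of the 13 higher; the median was 0.56 without SCB library 1, the library with the lowest mitochondrial share. The gene mt-Co1, for the catalytic subunit of cytochrome c oxidase, had 20077, 25459 and 34629.7 CPM in EXO and 8805, 19274 and 12989.5 CPM in SCB libraries (log2 fold 0.96 ± 0.35 SE at adjusted p = 0.127), with SCB library 2 close to EXO library 1. The respiratory chain count was 13 without SCB library 1, 0 without SCB library 2, 18 without SCB library 3 and 0 without any 1 EXO library, with medians from 0.41 to 0.56.

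Transcript length moved with the exosome difference and bears on this list. With the genes tested put in 5 equal groups by effective length, 180 rose and 31 fell in the shortest group (median log2 fold 0.22), and 25 rose and 115 fell in the longest (median -0.18). The respiratory chain genes had a median effective length of 446 bases, against medians of 382 and 4080.3 bases in the shortest and longest of these groups. When the trend with length was removed from each library, an alternative chosen after seeing the data, 6 of the 40 rose and the median was 0.29, below the 9 of 31 rises of the cytochrome P450 list; the injury median was -1.97 with 7 falling, the tubulin median -1.48 with 5 falling and the replication median -0.76 with 12 falling. With a transcript length offset in the fit, which left 29 calls in all, 0 respiratory chain, 0 injury, 1 tubulin and 1 replication gene passed, at medians of 0.49, -2.02, -1.59 and -0.80. Genes that are not protein-coding, shorter on average, rose in 62 and fell in 2 of 2135 cases (median 0.35), among them 23 processed pseudogenes and 12 antisense genes that rose; reads of a pseudogene and its parent, or of an antisense gene and its partner, could be confused. With the length trend removed, 43 genes that are not protein-coding rose and 11 fell. The part of these genes in the result was not tested further.

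**Figure D3:**
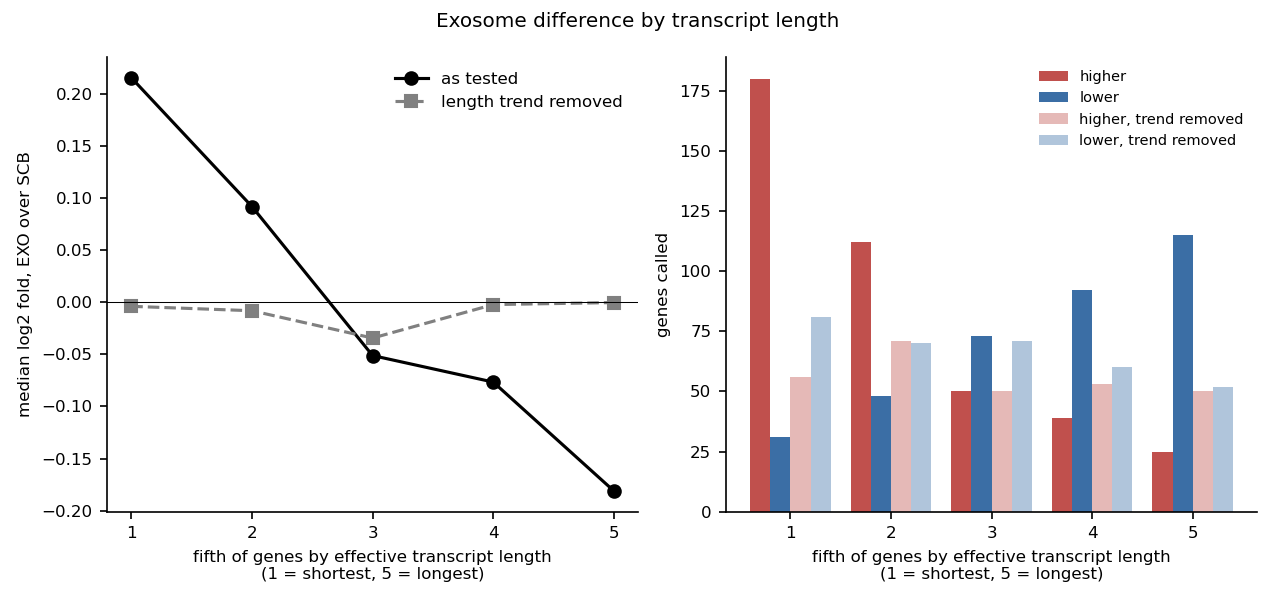
Left, the median log2 fold of EXO over SCB (y axis) in 5 equal groups of the genes tested by effective transcript length (x axis), as tested (circles) and with the length trend of each library removed (squares). Right, the number of genes called in each group, where 180 rose and 31 fell in the shortest and 25 rose and 115 fell in the longest before removal, against 56 and 81 and 50 and 52 after it.

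Rises beyond the lists with the smallest p were those of Crispld2, Map3k7cl, Chac2, Sucnr1, Gm5617, Tmem86a, Nit2 and Tm2d2. Sucnr1, the receptor for succinate, had 98.1, 89.6 and 89.7 CPM in EXO and 40.3, 45.3 and 33.0 CPM in SCB libraries (log2 fold 1.22 ± 0.15 SE at adjusted p = 0.0190). Chac2, a glutathione-degrading cyclotransferase, had 65.2, 65.4 and 69.8 CPM in EXO and 23.1, 32.1 and 22.7 CPM in SCB libraries (log2 fold 1.36 ± 0.16 SE at adjusted p = 0.0190). Crispld2, a secreted glycoprotein, had 16.3, 20.7 and 26.1 CPM in EXO and 6.12, 6.75 and 5.22 CPM in SCB libraries (log2 fold 1.80 ± 0.21 SE at adjusted p = 0.0190). The groups were well apart in each case. Nit2, an omega-amidase, had a log2 fold of 1.24, Tmem86a, a lysoplasmalogenase, of 1.84, and Map3k7cl, Gm5617 and Tm2d2 of 1.45, 1.35 and 1.10.

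The list of reported miR-486-5p targets with PI3K, AKT and FoxO genes had 0 calls of 28 tested in edgeR (median log2 fold -0.10, and 0.05 with the length trend removed), beside 3 at an unadjusted p under 0.05 and 2 lower in DESeq2. Foxo1, a reported target, had 43.4, 32.5 and 41.5 CPM in EXO and 48.3, 55.1 and 29.2 CPM in SCB libraries (log2 fold -0.18 ± 0.23 SE at adjusted p = 0.673), with groups that overlapped and a log2 fold of 0.045 once the length trend was removed. The difference was not larger than the spread between libraries. The plot of gene lists sets these values beside the others.

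**Figure D4:**
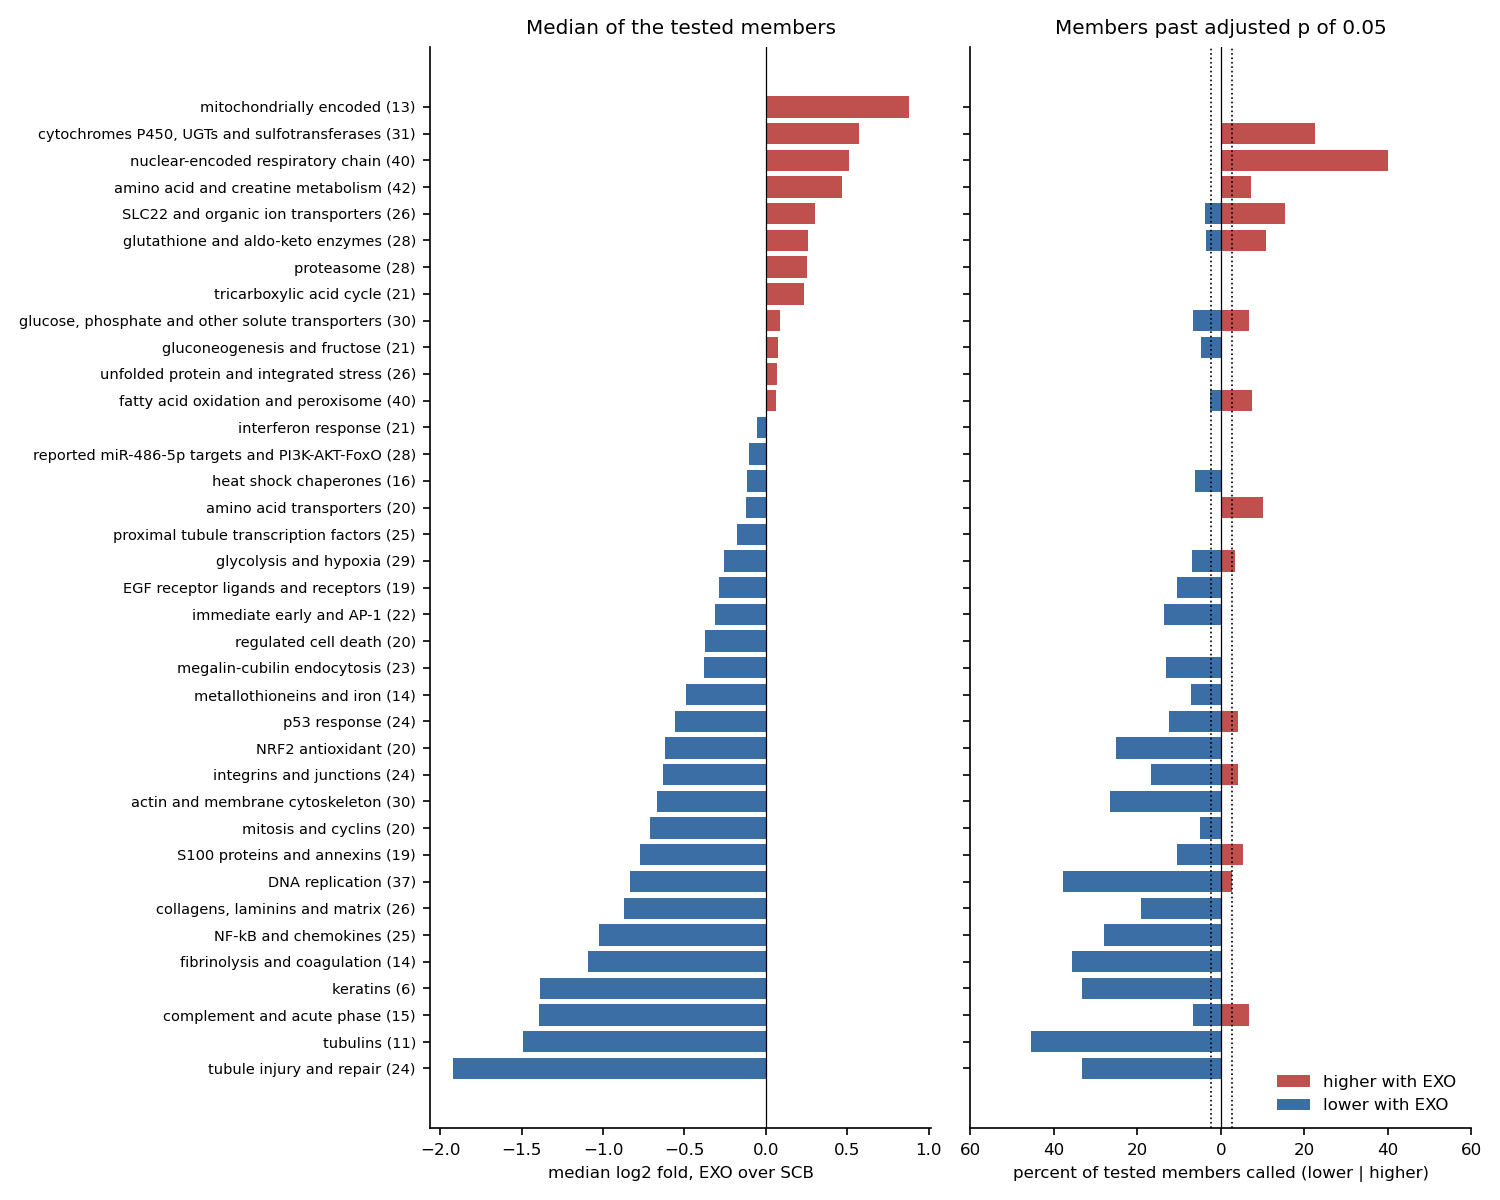
Left, the median log2 fold of EXO over SCB for the tested members of 37 functional gene lists (number tested in parentheses); right, the percent of members called lower (leftward) and higher (rightward), with dotted lines at the shares of all genes, 2.41% lower and 2.72% higher. Injury genes have the lowest median (-1.92) and mitochondrially encoded genes the highest (0.88, none called); nuclear respiratory chain genes have the largest share of rises (16 of 40), which is 6 of 40 with the length trend removed.

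How these genes behave in injury without treatment was taken from the authors' deposited table of untreated injury over sham, a contrast that contains no EXO or SCB library, although its base means are those of all tubular libraries normalized together and its folds may be shrunken. Of 14879 genes with an adjusted p in the authors' deposited table, 1823 were higher in injury (12.3%) and 1420 lower (9.54%). Of the 359 genes that fell with exosomes, 212 (59.1%) were higher in injury there and 0 lower. Of the 406 that rose, 151 (37.2%) were lower in injury in the authors' deposited table and 7 (1.72%) were higher. As shares of that table's own lists, the fallen genes were 11.6% of those higher in injury and the risen genes 10.6% of those lower. Across 14879 genes the 2 log2 folds had a Pearson correlation of -0.433, where genes are not independent replicates. Of the 40 respiratory chain genes 0 were higher and 2 lower in injury in the authors' deposited table (median log2 fold 0.03), although 16 rose with exosomes. Of the 37 replication genes 11 were higher and 2 lower in the authors' deposited table (median 0.26).

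**Figure D5:**
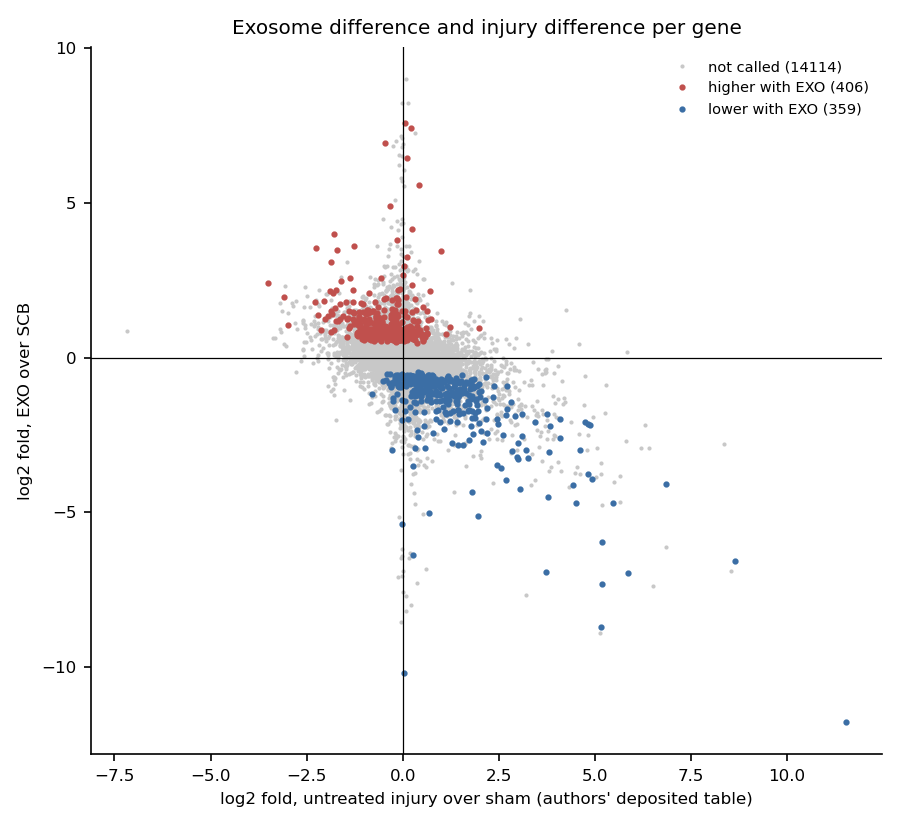
Log2 fold of EXO over SCB (y axis) against the log2 fold of untreated injury over sham in the authors' deposited table (x axis), 1 point per gene, with the 406 genes higher and the 359 lower with EXO in colour. Most genes lower with EXO lie to the right of 0 and most genes higher with EXO to the left; the correlation over 14879 genes is -0.433.

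Other deposited contrasts place both groups against untreated injury, and they share the untreated libraries with each other. Those libraries are titled in another manner (PTs, not tub) and may come from another series. If so, treatment and series cannot be told apart in these contrasts. Havcr1 had a log2 fold of 4.17 for untreated injury over EXO (adjusted p = 0.000136) and of -0.17 for untreated injury over SCB (adjusted p = 0.493) in the authors' deposited tables. Akr1c14 had -2.43 over EXO (adjusted p = 1.78e-14) and -0.33 over SCB (adjusted p = 0.292) in the authors' deposited tables. Stat3 differed from both, with 2.71 over EXO (adjusted p = 1.54e-13) and 1.13 over SCB (adjusted p = 0.00350) in the authors' deposited tables. In the authors' deposited table of untreated injury over SCB, which shares its SCB libraries with the test above, 101 of the 359 fallen genes were higher and 10 lower in untreated injury, and 93 of the 406 risen genes were lower and 20 higher, beside 11.1% of all its genes higher and 6.75% lower. Cdkn1a had a log2 fold of 3.68 and Sox9 of 2.56 for untreated injury over SCB in the authors' deposited table. Some genes went the other way in the authors' deposited tables. Top2a, which fell with exosomes, had -2.29 for untreated injury over SCB (adjusted p = 0.000804) and -1.03 over EXO (adjusted p = 0.0656). Cd55 and Crispld2, which rose, had 1.57 and 1.17 over SCB (adjusted p = 0.00321 and 0.000944). Over EXO these 2 had 0.41 and -0.39 (adjusted p = 0.391 and 0.258). The authors' deposited table of EXO over sham shares its EXO libraries with the test above. It had 167 of the 406 risen genes higher, beside 6.24% of all its genes, and 77 of the 359 fallen genes lower, beside 4.96%. Sham libraries are titled in the manner of the untreated ones and not of the EXO ones. Treatment and series may therefore not be separable in this contrast either. In the authors' deposited table of EXO over sham Havcr1 had a log2 fold of 0.08 (adjusted p = 0.637), Akr1c14 of 0.35 (adjusted p = 0.256) and Ndufa4 of 1.16 (adjusted p = 0.000206). The folds of the authors' deposited tables do not add up: for Havcr1 untreated injury over sham was 5.19, beside the 4.17 and 0.08 above. At least some are thus not plain ratios of group levels, and a fold near 0 in them need not mean equal levels.

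Whether the exosome difference was particular to tubular cells was asked with a fit of the 16 libraries of both cell types. EXO and SCB libraries of both cell types carry the same library numbers, 17, 18 and 19 for EXO and 12, 14 and 16 for SCB, and the labels do not say whether these are the same mice. The fit took the libraries as independent. By edgeR 0 of 17143 genes passed an adjusted p of 0.05 for a different exosome effect in tubular and endothelial cells. At an unadjusted p under 0.05 there were 1333 (7.78%). With no filter on low counts 503 passed the adjusted threshold, and without endothelial EXO library 1 there were 76. With library number as a block 0 genes were called. The lack of calls does not show that the effects were equal. The signs shared by the cell types are not independent evidence if mice are shared: 331 of the 359 genes that fell in tubular libraries had a negative log2 fold in endothelial libraries (median -0.45), and 369 of the 406 that rose a positive one (median 0.40), against a median of 0.003 over all genes. Endothelial calls numbered 2 over the same genes. For Havcr1 the endothelial log2 fold was -3.27, and the tubular minus endothelial difference was -2.67 (SE 1.77, adjusted p = 0.735). Ren1 had -0.05 in endothelial libraries, Crispld2 -0.23 and C3 -2.91.

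Markers of other cells differed in places. Of 11 tested fibroblast and pericyte markers 1 fell, Ren1, the renin gene of juxtaglomerular cells, with 7.88, 3.89 and 1.77 CPM in EXO and 65.6, 58.3 and 33.4 CPM in SCB libraries (log2 fold -3.51 ± 0.46 SE at adjusted p = 0.0209). The 13 markers of that list summed to 28.4 to 47.8 CPM in EXO and 106 to 128 CPM in SCB libraries. Ren1 alone made up a large part of the SCB sums, so their gap to EXO does not describe the other markers. Of 14 macrophage markers 1 fell, Cd14, a lipopolysaccharide co-receptor, with 5.30, 4.06 and 4.22 CPM in EXO and 9.32, 68.1 and 106 CPM in SCB libraries. The pan-leukocyte gene Ptprc had 3.31, 2.79 and 2.06 CPM in EXO and 3.13, 3.00 and 4.48 CPM in SCB libraries. The macrophage list summed to 44.5 to 75.2 CPM in EXO and 72.1 to 186 CPM in SCB libraries. Cd14 alone made up a large part of the sums of SCB libraries 2 and 3. The erythroid gene Hbb-bt, a near-copy of Hbb-bs, rose with 0.651, 2.89 and 2.30 CPM in EXO and 0.250, 0.139 and 0.156 CPM in SCB libraries, and the list summed to 66.9 to 73.4 CPM in EXO and 16.6 to 54.8 CPM in SCB libraries. Neutrophil markers summed to 2.09 to 3.31 CPM in EXO and 3.73 to 20.8 CPM in SCB libraries, with Ly6g and Camp at 0 reads in all 6. None of 14 lymphocyte markers was high enough to test, at 1.52 to 2.91 CPM summed in EXO and 0.0938 to 1.46 CPM in SCB libraries. Distal and collecting duct markers summed to 255 to 515 CPM in EXO and 260 to 595 CPM in SCB libraries and thick ascending limb markers to 1047 to 1659 CPM in EXO and 628 to 1260 CPM in SCB libraries, with 0 distal calls and 1 thick limb call, Cldn10. The part of these cells in the changes above was not tested.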

How the data were processed

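Poly(A)-selected RNA of proximal tubular cells was sequenced in 3 EXO, 3 SCB and 2 miR-486-5p mimic libraries. Per the submitters' processing notes Salmon 0.13.1 and DESeq2 were used with build GRCm38; which step each served is not given in the sources used here. Per the file headers the authors deposited, for each transcript, an estimated count, TPM and an effective length. The authors' deposited comparison tables give a log2 fold and an adjusted p-value per gene; their base means are over the tubular libraries, and whether the folds are shrunken is not stated.

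Estimated counts were summed per gene and rounded. Genes passed a filter on low counts (filterByExpr, minimum count 10), leaving 14913, and were fitted with edgeR 4.0.16 (R 4.3.3) by quasi-likelihood on all 8 tubular libraries, whose mimic libraries share the estimate of spread, with trimmed-mean normalization and Benjamini-Hochberg adjustment at 0.05. CPM use the normalized library sizes. The TPM served only to weight effective lengths. Interaction with endothelial cells was fitted on 16 libraries. Alternatives were size-factor normalization, DESeq2 1.42.0, no filter, a length offset, no mimic libraries, a replicate block and each library left out; removal of a length trend was added after seeing the data. Counting error alone sets the floor of 3 reads.

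The gene lists and rules were chosen with earlier results of these data known. Named genes were up to 4 called members of each list with the smallest p, 8 protein-coding genes beyond the lists in each direction with the smallest p, separated groups and at least 100 reads on average, and Havcr1, Lrp2, Slc34a1 and Foxo1 whatever their values; other named genes were chosen after their values were seen. Replicate numbers were not taken to pair the groups, since the labels name no shared mouse. Same-numbered replicates had correlations of -0.027, -0.071 and 0.001 after each group was centred on its mean. With so few libraries in a group, correlations of centred values cannot decide whether replicates pair. Strand of counting is not stated, and sham and untreated samples entered only through the authors' tables. Values of some list members are not reported here.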

Additional observations from a re-analysis of the deposited data

How the results depend on the processing

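The counts of calls depended on the setting. Of the 406 rises and 359 falls, size-factor normalization gave 373 and 362, removal of the length trend 280 and 334, DESeq2 926 and 902, no low-count filter 932 and 1082, no mimic libraries 241 and 212, and a transcript length offset 14 and 15. With the replicate block, which pairs libraries only by a number, 3 rose and 3 fell. Leaving out 1 library gave 1 to 774 rises and 0 to 582 falls. Of the 765 calls, 754 were also called by DESeq2, 723 after size-factor normalization, 495 with the length trend removed and 26 with the offset. The cause of these differences was not tested. Genes called for a different effect in tubular and endothelial cells numbered 503 with no filter and 0 to 76 without 1 library, against 0. Without 1 library Lrp2 ranged from -0.19 to 0.63 and Slc34a1 from -0.059 to 1.03 on the log2 scale, both negative without SCB library 3, and Foxo1 was 0.045 with the length trend removed. Depth limits low genes: Krt19 had at most 12 reads in a library.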
